A study of Sus scrofa with 9 samples.

Results

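Transcripts of the cytosolic ribosomal proteins were measured in the additional molar germs of Wuzhishan miniature pigs on the Affymetrix Porcine Genome Array. A gene was a member when its probe sets carried a single gene symbol that began with RPL or RPS followed directly by a digit. The S6 kinases (symbols beginning RPS6K) and RPLP0 were left out. The rule found 60 genes among the 6765 genes with a single symbol, on 90 of the 23999 probe sets tested. Each gene was read from its probe set with the highest mean log2 signal over the 9 arrays. The platform listed 38 members with 1 probe set and 22 with several. By symbol, 31 members belong to the large ribosomal subunit and 23 to the small subunit. The other 6 are paralogs or like-named genes, namely RPL7L1, RPL22L1, RPL26L1, RPL36AL, RPS27L and RPS19BP1. RPS19BP1 binds RPS19 and is itself no subunit of the ribosome. A further 8 probe sets carry a ribosomal protein symbol together with other symbols and were not used.

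Germs with the attached dental lamina were dissected from mandibles at 3 stages, named E50, E60 and E70 after the embryonic day. Each stage had 3 arrays, and no animal was treated. The additional molars are the molars that replace no deciduous tooth. At E50 the germ of M1, the first of them, is at the cap stage and M2 has not begun. By E60 the M1 germ has reached the bell stage and M2 starts to form. The E70 germs served as the comparison point, with a late bell M1 and an M2 near its E60 form. RNA was extracted from pools of germs of the same stage, and germs were taken within a litter. The labels call the arrays biological replicates without saying which animals they came from. The p-values thus rest on the spread between arrays, partly shared over all probe sets by the test, and not on known animals. The samples are whole germs: a lower level can come from fewer cells of a type or from less RNA per cell, and these cannot be told apart.

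A cytosolic ribosome consists of a small subunit, which holds the mRNA and reads its codons, and a large subunit, which joins amino acids and passes the growing chain through an exit tunnel. Each subunit is ribosomal RNA dressed with proteins that are needed in nearly equal amounts, and their mRNAs are among the most abundant in growing cells. These mRNAs begin with a run of pyrimidines at the cap (a TOP start), which ties their translation to the mTOR pathway. Tooth germs grow by proliferation of epithelium and mesenchyme through the cap and early bell stages.

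The E50 arrays stood apart from the others in their array controls. For EF1A, the signal at the 3′ end over that at the 5′ end, which grows as RNA or its copies are shortened, lay between 49.3 and 55.8 on the E50 arrays, between 1.42 and 1.56 on those of E60 and between 1.35 and 1.47 on those of E70. The hybridisation spike-ins had geometric mean signals from 58370 to 66123, from 4150 to 4268 and from 3086 to 3938 in the same order, and the median signal of all probe sets ran from 261 to 352, from 164 to 173 and from 173 to 184. For GAPDH the 3′ over 5′ values lay between 29.7 and 42.2, between 6.98 and 9.24 and between 4.36 and 6.47, and the signal of the 5S rRNA control between 74.6 and 455, between 59.5 and 85.3 and between 150 and 155. The E60 and E70 arrays thus lay close to each other in EF1A and did not overlap in the spike-ins, GAPDH or the 5S control. Most of these controls moved together with the E50 stage, so stage and array quality cannot be told apart in any comparison with E50, and the part of the controls in the changes of the members was not tested. Of 5 tooth epithelium markers, 2 at E50 and E60 and 4 at E70 were above background on all arrays of the stage. CDH1 and EPCAM were above it on all 9 arrays, while the enamel matrix genes AMBN, AMELX and ENAM were not above it on all arrays at E50 or E60. Of 3 dental mesenchyme markers MSX1 was above background on all 9 arrays, and DSPP and DMP1 of odontoblasts were not above it on all arrays at any stage. MSX1 fell between E50 and E60, by 1.03 ± 0.25 on the log2 scale (adjusted p = 0.0295 in limma). Background was taken as the 95th percentile of 23 control probe sets with no target in the pig. Markers of other cell types were also present. The signals of 6 skeletal muscle markers summed (as log2 of the sum) to between 12.2 and 12.5 on the E50 arrays, 10.1 and 10.4 on those of E60 and 8.81 and 8.83 on those of E70. By stage, 4, 5 and 5 of the 6 were above background on all arrays. The 6 bone and cartilage markers summed to 15.5 to 15.8, 15.8 to 15.9 and 13.2 to 13.3, with 3, 5 and 5 above background. The 7 macrophage and blood markers summed to 11.9 to 12.6, 11.8 to 11.9 and 11.5 to 12.2, with 3, 5 and 5 above background and PTPRC, which marks white blood cells, below it on all 9. The part of these cells in the changes of the members was not tested.

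The ribosomal protein transcripts were among the brightest of the array at every stage. Reading each gene from its brightest probe set favours this, except in the 38 members with 1 probe set. Of the 60 members 50 had a mean log2 signal above 14, against 4 of their 30 other probe sets. The median member stood at the 99.7th percentile of all probe sets on each of the 9 arrays, and 51 or 52 of the 60 members lay in the brightest 1%. Of the 100 brightest probe sets of an array, 40 to 44 were members. The E50 arrays held 42 or 43 members among the 100, the E60 arrays 42 to 44 and the E70 arrays 40 to 43, so this count overlapped between stages. In the brightest 1% were 52 members on each E50 array and 51 on each later array. The signals at these ranks differed by more. The log2 signal at the 99.7th percentile of all probe sets lay between 16.21 and 16.40 on the E50 arrays, between 15.15 and 15.22 on those of E60 and between 15.03 and 15.25 on those of E70. The median member itself ran from 16.45 to 16.56, from 15.21 to 15.29 and from 15.04 to 15.21 in the same order. RPS18 was the brightest member in the mean of each stage.

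**Figure D1:**
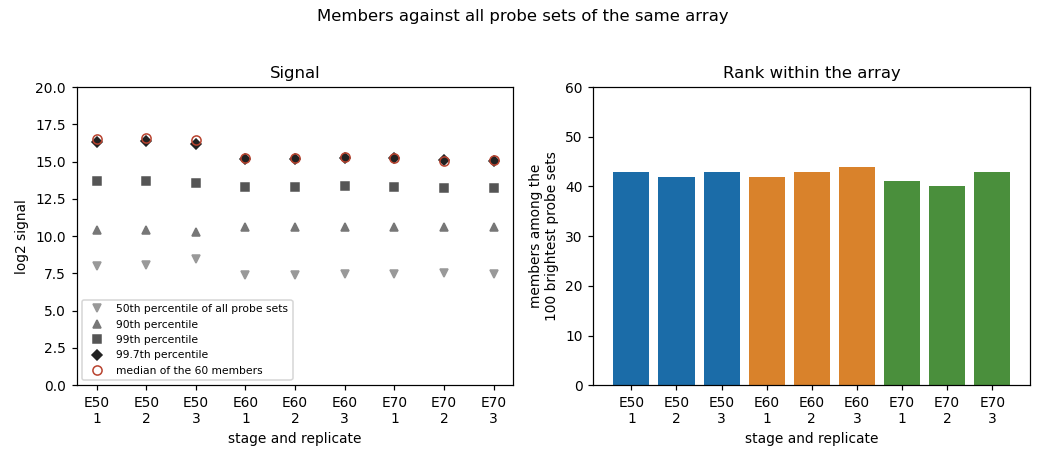
The left panel plots, for each array (stage and replicate on the x axis), the log2 signal at the 50th, 90th, 99th and 99.7th percentile of all probe sets and the median of the 60 members; the right panel plots how many members were among the 100 brightest probe sets. The member median follows the 99.7th percentile, which is higher on the 3 E50 arrays, while 40 to 44 members are in the brightest 100 on every array.

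Between E50 and E60 most ribosomal protein transcripts fell on the deposited scale. A call was an adjusted p under 0.05 in limma, fitted to all 9 arrays and all probe sets. Counts of genes that fell or rose are counts of called genes. Of the 60 members 44 were called lower at E60, 1 was called higher and 15 were not called, where 10.6% of all probe sets were called lower and 7.85% higher. After quantile normalization, which equalises the signal distributions of the arrays, 8 were called lower and 2 higher. Of all 23999 probe sets 1780 were then called lower and 1793 higher. On the deposited scale the median change was -1.40 (log2) against -0.18 over all probe sets, which puts the members 1.23 below the median of all probe sets (median relative to all -1.23). Changes ran from -3.28 to 2.58. All 3 E60 arrays lay below all 3 E50 arrays in 53 members and above them in 3. Over all 23999 probe sets these counts were 5198 and 4210. In the small subunit 20 of 23 members were called lower (median change -1.89), and in the large subunit 20 of 31 (median -1.14). By sign alone 23 and 27 of them were below 0 in the same order. Of the 6 paralogs and like-named genes 4 fell, with a median of -1.27. The spread between arrays of a stage was small for these genes. Member SDs had medians of 0.137, 0.0867 and 0.211 for E50, E60 and E70, beside 1.03, 0.264 and 0.316 for all probe sets. limma pulls the spread of each gene toward a common value for all probe sets, so member standard errors do not reflect these SDs alone.

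**Figure D2:**
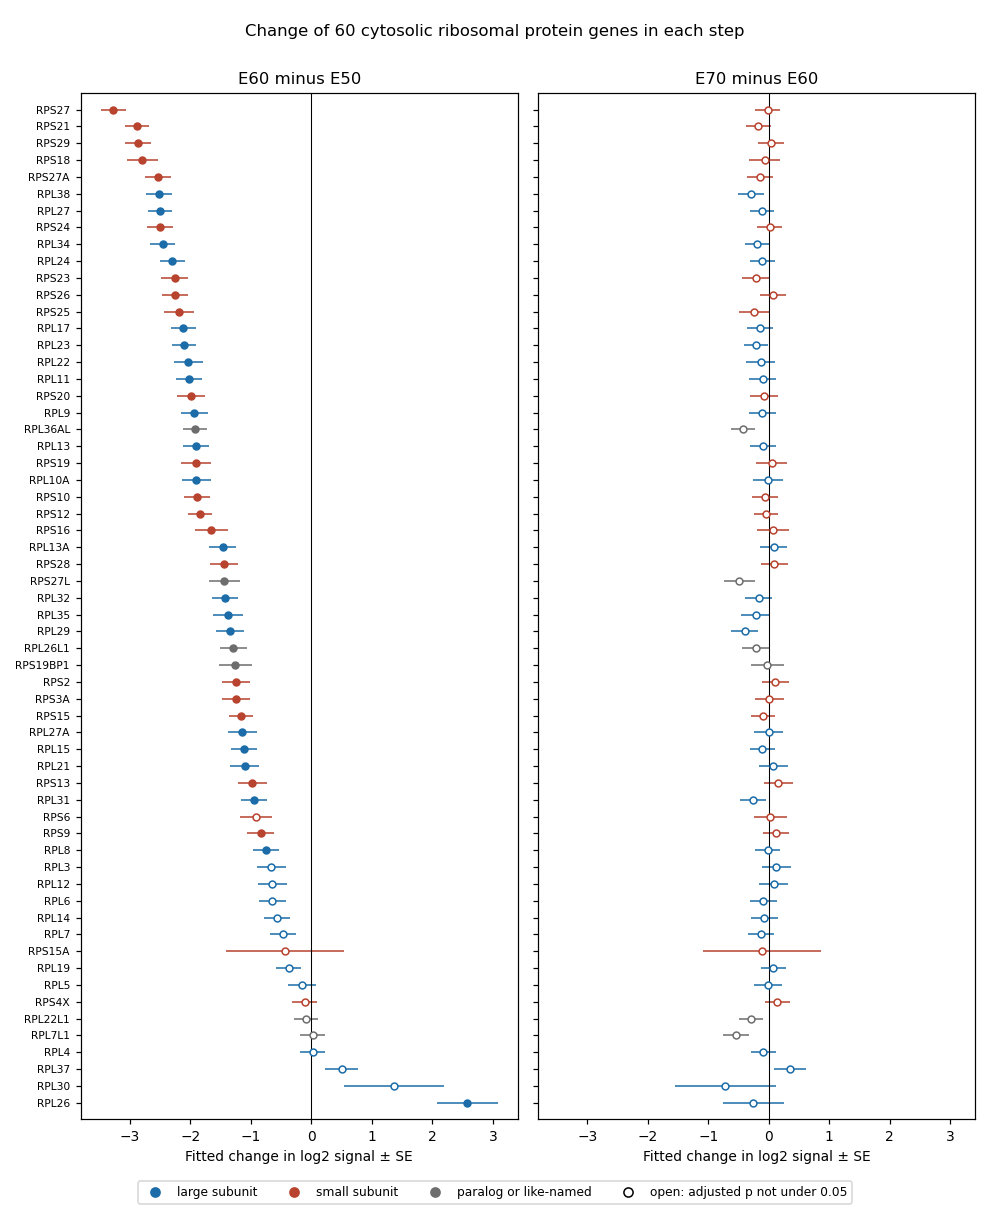
Each point is the fitted change of a member in log2 signal with its standard error, from E50 to E60 in the left panel and from E60 to E70 in the right panel, coloured by subunit; filled points have an adjusted p under 0.05. On the left 44 members are filled below 0 and RPL26 alone above it, and on the right none is filled and changes lie between -0.71 and 0.35.

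The largest falls were in proteins of the small subunit. RPS27, a zinc-finger protein of the small subunit, had log2 signals of 18.74, 18.68 and 18.84 on the E50 arrays, 15.43, 15.43 and 15.56 at E60, and 15.68, 15.34 and 15.36 at E70. It was high on all E50 arrays, and the E60 and E70 arrays overlapped each other far below them. It fell by 3.28 ± 0.21 (SE) between E50 and E60 (adjusted p = 0.000597 in limma, n = 3 arrays a stage). RPS21, a short protein of the small subunit, read 18.07, 18.17 and 18.11 at E50, 15.17, 15.33 and 15.21 at E60, and 15.25, 15.03 and 14.91 at E70, and fell by 2.88 ± 0.20 (adjusted p = 0.000787). RPS29, another zinc-finger protein of the subunit, read 18.46, 18.35 and 18.53, then 15.45, 15.58 and 15.71, then 15.82, 15.63 and 15.40. It fell by 2.87 ± 0.22 (adjusted p = 0.000925). The E50 arrays stood alone in both genes. After quantile normalization RPS27 and RPS21 were still called lower, and RPS29 was not (change -0.72).

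RPS18, in the head of the small subunit, was the brightest member, with 19.03, 18.92 and 19.31 at E50, 16.22, 16.29 and 16.37 at E60, and 16.63, 16.10 and 15.95 at E70. It fell by 2.79 ± 0.25 (adjusted p = 0.00137). RPS27A is made as a fusion with ubiquitin, which is cut off to give both proteins. Its signals were 18.49, 18.46 and 18.71 at E50, 15.94, 16.02 and 16.10 at E60, and 16.10, 15.84 and 15.71 at E70, a fall of 2.53 ± 0.21 to E60 (adjusted p = 0.00118). RPL38 was the large-subunit protein with the largest fall. It is known from a mouse mutant with a patterning defect of the axial skeleton. It read 17.96, 17.82 and 17.55 at E50, 15.28, 15.21 and 15.29 at E60, and 14.94, 14.83 and 15.14 at E70, and fell by 2.52 ± 0.22 (adjusted p = 0.00121). In RPL38 the E70 arrays also lay below the E60 arrays, a step that was not called. After quantile normalization the change to E60 was -0.28 in RPS18, -0.26 in RPS27A and -0.78 in RPL38, none of them called.

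**Figure D3:**
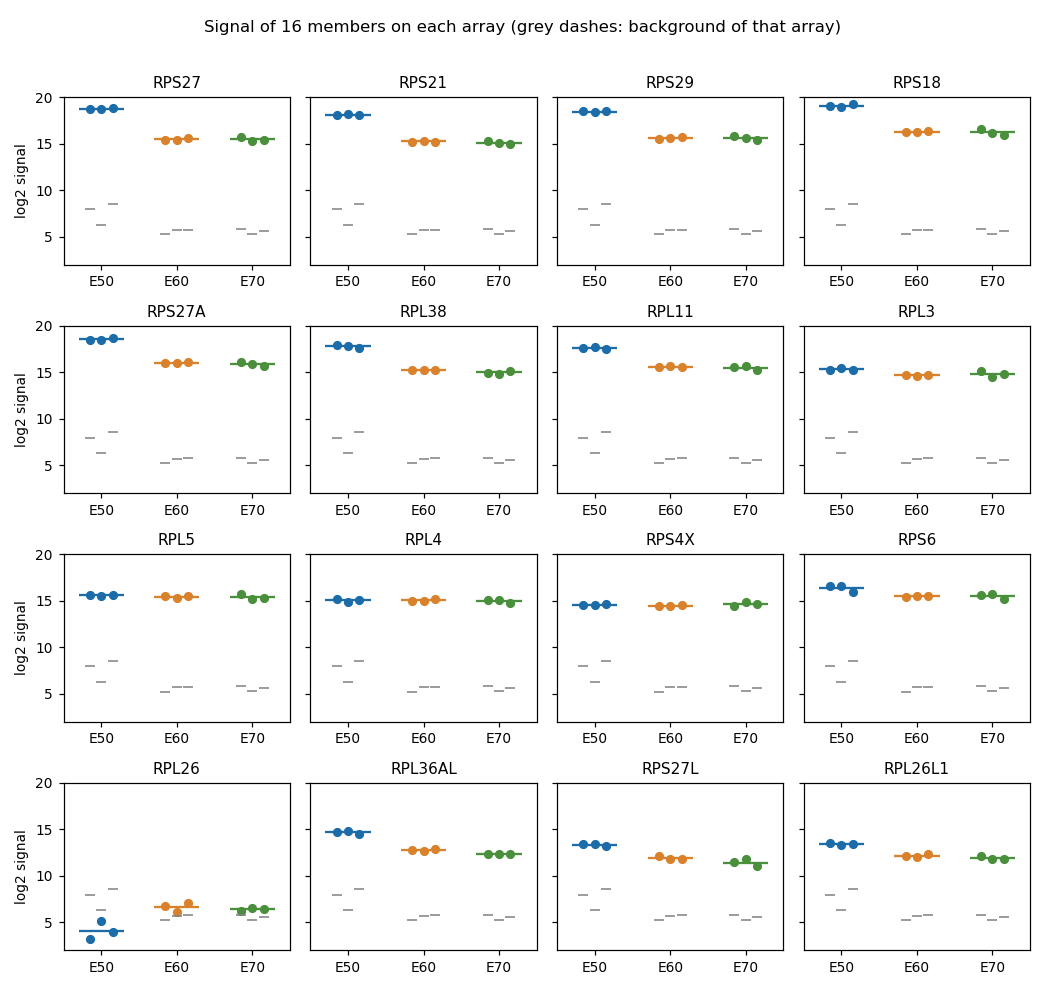
Log2 signal of 16 members on each of the 9 arrays, with stage on the x axis, a point for each array, a bar at the stage mean and grey dashes at the background of the same array. RPS27, RPS21, RPS29, RPS18, RPS27A, RPL38 and RPL11 are higher on all E50 arrays than on any E60 or E70 array, RPL4 and RPS4X read nearly level, and RPL26 lies below background on the 3 E50 arrays.

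Proteins that act at the same site of the ribosome did not always change by the same amount. RPL5 and RPL11 bind the 5S ribosomal RNA as a particle that joins the large subunit and that, when free, restrains MDM2 and so holds p53 up. RPL11 read 17.62, 17.69 and 17.46 at E50 and 15.52, 15.66 and 15.53 at E60, and fell by 2.02 ± 0.22 (adjusted p = 0.00237). RPL5 read 15.62, 15.54 and 15.61 at E50 and 15.48, 15.32 and 15.50 at E60, a change of -0.16 ± 0.23 that did not pass the test (adjusted p = 0.66). The E60 arrays lay below the E50 arrays in both genes, by little in RPL5. After quantile normalization RPL11 was at -0.15 and RPL5 at 0.83, neither of them called. RPL3, which reaches to the peptidyl transferase centre, read 15.26, 15.44 and 15.27 at E50 and 14.66, 14.62 and 14.70 at E60 (change -0.66 ± 0.24, adjusted p = 0.0982).

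Of the 6 measured proteins that line the exit tunnel or its mouth, 3 fell, RPL26 was called higher from a dim probe set, and RPL4 and RPL19 were not called. RPL17 changed by -2.11 ± 0.21, RPL35 by -1.38 ± 0.24 and RPL31 by -0.94 ± 0.21 (adjusted p = 0.00192, 0.0107 and 0.0232). The RPL35 call was lost without E60 replicate 1 and the RPL31 call without any of the 3 E60 replicates. At the L1 stalk, which escorts spent tRNAs out, RPL10A fell by 1.90 ± 0.24 (adjusted p = 0.00384). All 3 measured proteins at the mRNA entry and decoding site fell, RPS23 by 2.26 ± 0.23, RPS2 by 1.24 ± 0.23 and RPS15 by 1.16 ± 0.20 (adjusted p = 0.00195, 0.0115 and 0.00971). The call of RPS2 was lost without E60 replicate 1. At the mRNA exit RPS26 fell by 2.25 ± 0.22 and RPS28 by 1.45 ± 0.23 (adjusted p = 0.00163 and 0.00757). After quantile normalization none of these falls from RPL17 to RPS28 was called. Their changes then lay between -0.56 in RPL10A and 0.28 in RPL31, with RPL17 at 0.17, RPS23 at -0.0045, RPS2 at -0.15 and RPS15 at -0.02. RPS6, the substrate of the S6 kinases downstream of mTOR, read 16.55, 16.62 and 15.96 at E50 and 15.36, 15.54 and 15.48 at E60. The stages did not overlap, and the change of -0.92 ± 0.27 missed the threshold (adjusted p = 0.0515). After quantile normalization it was 0.40.

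Diamond-Blackfan anaemia is an inherited failure of red cell production caused by loss of 1 copy of a ribosomal protein gene. Of 18 genes listed for it 14 were measured, of which 12 fell, RPL26 was called higher and RPL5 was not called, beside 44 of the 60 members and 10.6% of all probe sets called lower. After quantile normalization RPS27 and RPL27 of the 12 were called lower. On the deposited scale the median change of the 14 was -1.89, against -1.40 over all members. RPS27 and RPS29 were the largest falls of that list, followed among those named here by RPL27 at -2.50 ± 0.20 (adjusted p = 0.00101), a large-subunit protein.

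Some bright members stayed near their E50 level on the deposited scale. RPL4, whose long loop lines the tunnel, RPS4X, an X-linked protein of the small subunit, and the dim probe sets described next were picked out after their values were seen. RPL4 read 15.15, 14.83 and 15.10 at E50, 15.01, 15.02 and 15.13 at E60, and 15.06, 15.05 and 14.79 at E70. All stages overlapped. RPS4X read 14.59, 14.51 and 14.61 at E50, 14.47, 14.44 and 14.49 at E60, and 14.40, 14.82 and 14.60 at E70. The change of RPS4X to E60 was -0.10 ± 0.21 (adjusted p = 0.752 in limma). After quantile normalization the change to E60 was 0.71 in RPL4 and 0.45 in RPS4X, neither of them called. RPS4X and RPL4 had the lowest E50 means among the 50 members with a mean log2 signal above 14. Over those 50, stage means spanned 4.51 log2 units at E50, from RPS4X at 14.6 to RPS18 at 19.1. They spanned 1.99 at E60 and 2.02 at E70, from RPL13 at 14.3 and 14.2 to RPS18 at 16.3 and 16.2. The interquartile range was 1.41, 0.52 and 0.53 in the same order. The order of these 50 members was closer between E60 and E70 (Spearman's rho 0.95) than between E50 and E60 (rho 0.72), as a description across genes that share their probe sets and arrays.

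The member called higher was read from a dim probe set. RPL26 sits at the tunnel exit and also binds the mRNA of p53. Its log2 signals were 3.15, 5.10 and 3.98 at E50, 6.76, 6.10 and 7.11 at E60, and 6.26, 6.53 and 6.42 at E70. It was below background on all 3 E50 arrays and above it on all 6 later arrays. The fitted change was 2.58 ± 0.51 (adjusted p = 0.0147), but the mean background of the E50 arrays, 7.59, was above the mean of the E60 arrays, 6.65, so no fold can be given. The call was lost without E60 replicate 1 or 3 and when only the E50 and E60 arrays were fitted (adjusted p = 0.0594). RPL30 and RPS15A were likewise below background on the E50 arrays, with means of 5.52 and 5.79. RPL37 read 10.42 to 10.92 at E50 and 10.99 to 11.49 at E60 and was not called (change 0.50 ± 0.27).

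Of the 6 paralogs and like-named genes 4 fell, and all 4 were also called lower after quantile normalization. RPL36AL, the autosomal copy of an X-linked large-subunit gene, read 14.74, 14.80 and 14.50 at E50, 12.78, 12.62 and 12.86 at E60, and 12.33, 12.31 and 12.35 at E70. The E50 arrays were highest and the E70 arrays lowest, with no overlap between any stages. Its change to E60 was -1.92 ± 0.20 (adjusted p = 0.00215). RPS27L, a paralog of RPS27 that p53 induces, read 13.46, 13.38 and 13.15, then 12.07, 11.83 and 11.77, then 11.43, 11.77 and 11.02. It fell by 1.44 ± 0.26 (adjusted p = 0.0115). RPL26L1, a paralog of RPL26, read 13.55, 13.26 and 13.47 at E50 and 12.09, 11.97 and 12.35 at E60 and fell by 1.29 ± 0.23 (adjusted p = 0.011), a call lost without E60 replicate 1 or 2. RPS19BP1 read 10.34, 10.96 and 11.17 at E50 and 9.66, 9.65 and 9.38 at E60. It fell by 1.26 ± 0.27 (adjusted p = 0.0194), and that call was lost without any of the 3 E60 replicates. RPL22L1, the paralog of RPL22, read 13.99, 14.16 and 13.89 at E50 and 13.93, 13.92 and 13.91 at E60 (change -0.09 ± 0.20). RPL7L1 read 11.75, 11.67 and 11.57 at E50 and 11.56, 11.60 and 11.88 at E60 (change 0.02 ± 0.21). The stages overlapped in both.

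The size of the fall followed the number in the gene symbol. Ribosomal proteins were numbered by their place on a gel, and proteins with higher numbers are on the whole smaller. Of 14 subunit genes numbered up to 10, 7 were called lower, with a median change of -0.79. Of 16 numbered 11 to 20, 12 were called lower, with a median of -1.56. Of 24 numbered above 20, 21 were called lower and RPL26 higher, with a median of -2.15. By sign alone 13, 16 and 21 of these genes were below 0 in the same order. Over the 50 members with a mean log2 signal above 14, Spearman's rho between number and change was -0.59. It was -0.57 over 28 of the large subunit and -0.75 over 22 of the small subunit, and with the dimmer members included -0.27 over 31 and -0.74 over 23. After quantile normalization the value over 50 members was -0.51. From E60 to E70, where no member was called, it was -0.49 over the same 50. These are descriptions across genes read on the same arrays, and protein and transcript lengths were not analysed here.

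**Figure D4:**
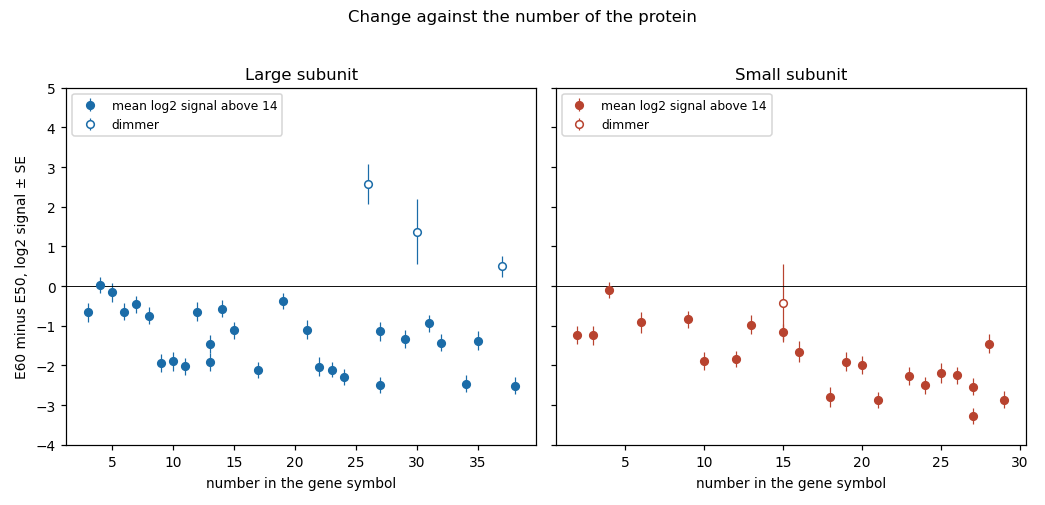
Change in log2 signal from E50 to E60 with its standard error, against the number in the gene symbol, for the 31 members of the large subunit and the 23 of the small subunit; open points have a mean log2 signal of 14 or less. Filled points go lower as the number rises, from near 0 for RPL4, RPL5 and RPS4X to -3.28 for RPS27.

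Most of the difference between E50 and E60 was absent after quantile normalization. Quantile normalization gives every array the same distribution of signals and so removes the higher upper tail of the E50 arrays. As a group the members held like ranks on all arrays, with 40 to 44 among the 100 brightest probe sets. A fall shared by the brightest probe sets was therefore bound to shrink, whatever its source, which was not tested. Single members did move in rank. From E50 to E60 the mean percentile went from 92.9 to 79.0 in RPS19BP1, from 98.8 to 96.8 in RPS27L and from 13.5 to 40.0 in RPL26. After quantile normalization the median change of the members was -0.12 (median of all probe sets 0.00), 8 members were called lower and 2 higher. Over all 23999 probe sets 1780 were called lower and 1793 higher. By subunit the medians were 0.03 in the large and -0.15 in the small, with 2 called lower in each. The 8 were RPS27, RPS21, RPL27, RPL13, RPL36AL, RPS27L, RPL26L1 and RPS19BP1, and the 2 were RPL26 and RPL7. All but RPL7 were also called, in the same direction, on the deposited scale. RPS27 changed by -1.10, RPS21 by -1.02, RPL27 by -0.92 and RPL13 by -0.98 (adjusted p = 0.0194, 0.0215, 0.0264 and 0.0321). The 4 paralogs and like-named genes kept more of their change: RPL36AL was at -1.54, RPS27L at -1.31, RPL26L1 at -1.11 and RPS19BP1 at -1.42 (adjusted p = 0.0063, 0.0214, 0.0249 and 0.0199). RPL7 was at 0.83 (adjusted p = 0.0364), where on the deposited scale its change was -0.46 ± 0.22 and not called. Centring each array on its median moved the change of the median probe set from -0.18 to 0.60. It left the members at a median of -0.63, as far below all probe sets as before, with 25 called lower and 3 higher. Over all probe sets 911 were then called lower and 4679 higher.

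**Figure D5:**
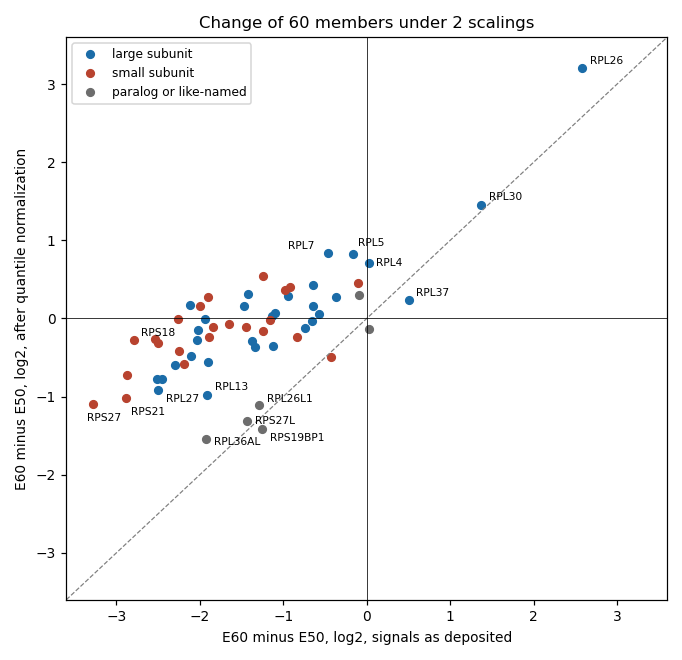
Change from E50 to E60 in log2 signal for the 60 members, on the deposited scale (x axis) and after quantile normalization (y axis), with a dashed line where both are equal. The subunit genes called lower on the deposited scale move up to between -1.10 and 0.54, while RPL36AL, RPS27L, RPL26L1 and RPS19BP1 stay close to the line.

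Other transcripts of the brightest 1% also fell at E60 in part. The brightest 1% of probe sets by mean signal held 51 members, 4 further probe sets of members and 185 others. Among the 51 members 40 were called lower (78.4%), with a median change of -1.46. Among the 185 others 68 were called lower (36.8%) and 12 higher, with a median change of -0.43. These others include ribosomal proteins outside the symbol rule, such as RPLP0, RPLP1 and FAU. The others were dimmer, with a median of the mean log2 signals of 14.2 against 15.8 for the 51 members, so the groups are not matched in brightness and the counts are set side by side with no test.

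Between E60 and E70 no member was called in either direction (limma), where 0.338% of all probe sets were called lower and 0.0833% higher. At an unadjusted p under 0.05 there was 1 member, RPL7L1. Fitted without the E50 arrays, limma called 0 members too. The median change was -0.09, against 0.05 over all probe sets, and the 95% confidence intervals had a median half-width of 0.52. For 55 members the interval lay within 1 log2 unit of 0, and for 5 it reached further, namely RPL26, RPL30, RPS15A, RPL7L1 and RPS27L. In 10 members all E70 arrays lay below all E60 arrays, against 12.4% of all probe sets, and in 0 above, against 15.7%.

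The lowest values of this step were in dim or like-named members. RPL30, a large-subunit protein, had the lowest change at -0.71 ± 0.83, with signals of 7.32, 6.57 and 6.80 at E60 and 4.17, 7.68 and 6.70 at E70. Its E70 replicate 1 was below background, and without that array the change was 0.29. RPL7L1 read 11.56, 11.60 and 11.88 at E60 and 10.98, 11.25 and 11.20 at E70, a change of -0.54 ± 0.21 (adjusted p = 0.577 in limma) with no overlap. RPS27L changed by -0.48 ± 0.26, also without overlap. All 6 paralogs and like-named genes were below 0, with a median of -0.36, and in 4 of them the arrays did not overlap. The highest values were 0.35 ± 0.27 for RPL37, 0.16 ± 0.24 for RPS13 and 0.14 ± 0.21 for RPS4X. In the small subunit 12 members were above 0 and 11 below, and in the large subunit 6 above and 25 below.

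Between E50 and E70 the members stood much as between E50 and E60, since the comparisons share the E50 arrays. Here 42 members were called lower and RPL26 higher, where 10.6% of all probe sets were called lower and 8.16% higher, and the median change was -1.53. The 5 largest falls were RPS27 at -3.29 ± 0.21, RPS21 at -3.05 ± 0.20, RPS18 at -2.86 ± 0.25, RPS29 at -2.83 ± 0.22 and RPL38 at -2.80 ± 0.22. RPL26 was at 2.33 ± 0.51 (adjusted p = 0.0198), a call lost without any of the 3 E70 replicates. The F test over the 3 stages called 43 members, where it called 17.7% of all probe sets. The difference between the steps was itself tested, as the change from E60 to E70 minus the change from E50 to E60. In 13 members it was called with the later step the more positive, against 0.946% of all probe sets, and in 0 with the later step the more negative (1 at an unadjusted p under 0.05), against 1.05%. RPS27 (difference 3.26, adjusted p = 0.0158) and RPS29 (difference 2.90, adjusted p = 0.0246) were the largest of these.

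Further probe sets of the members did not always repeat the brightest. There were 30, of which 12 were called lower between E50 and E60, 4 higher and 14 not at all, with a median change of -0.77. The 4 with a mean log2 signal above 14 had changes between -2.50 and -0.78, and 3 of them were called lower. In RPL34, RPL9 and RPS27A a dimmer probe set was called higher where the brightest was called lower. The brightest fell by 2.46 ± 0.21 in RPL34, by 1.93 ± 0.22 in RPL9 and by 2.53 ± 0.21 in RPS27A. The dimmer probe set of RPL34 was below background on all E50 arrays, whose mean background of 7.59 was above its E60 mean of 7.33, so its change has no measured size. That of RPL9 was above background on 1 of the 3 E50 arrays (fitted change 1.18 ± 0.25). That of RPS27A was above background on all 9 arrays, with 9.86, 9.66 and 9.85 at E50 and 11.29, 10.998 and 11.02 at E60, a change of 1.31 ± 0.22. RPS27L and RPS28 were read from probe sets that the platform marks as shared between transcripts, and RPL31 from 1 marked as cross-hybridising. On its other probe set RPL31 changed by -0.78 ± 0.23 (adjusted p = 0.055). RPS28 had 2 other, dimmer probe sets, at -1.74 ± 0.23 (adjusted p = 0.00458) and -0.46 ± 0.82 (adjusted p = 0.724). Ribosomal protein genes have many near-identical pseudogenes, and which transcripts the probe sets report was not tested.

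Genes outside the symbol rule were counted on the same scale, beside 10.6% of all probe sets called lower and 7.85% higher. Of 6 measured subunits outside the symbol rule, 4 fell between E50 and E60 with a median change of -1.04. RPLP1 and RPLP2, of the acidic stalk that recruits elongation factors, changed by -2.36 ± 0.21 and -1.43 ± 0.31, RPLP0, their anchor, by -1.28 ± 0.22 and FAU, which carries RPS30, by -0.80 ± 0.21. Of 5 subunits and partners of elongation factor 1, EEF1D alone fell (-0.75 ± 0.20), and the median was -0.40. That median was the value of EEF1A1 (-0.40 ± 0.74), read from a dim probe set marked as shared between transcripts. It was above background on 2 of the 3 E50 arrays. Among 9 other mRNAs with a TOP start, TPT1 (-2.04 ± 0.22) and VIM (-1.002 ± 0.27) fell, EIF3E (1.62 ± 0.20) rose, and the median was 0.37. TPT1 and VIM were the brightest of the 9 at E50, with mean log2 signals of 17.5 and 16.8.

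Of 43 ribosome assembly factors 4 fell and 4 rose, shares close to those over all probe sets. Their median change was -0.12 against -0.18 over all probe sets. The brightest of these factors, NPM1, had a mean log2 signal of 14.2 at E50, and BOP1 was below background on all arrays. The factors are thus not matched to the members in brightness, and the counts are on the deposited scale only, with no test. Those with the largest called changes were KRR1 (2.16 ± 0.25), UTP15 (-2.12 ± 0.44), EMG1 (-1.53 ± 0.23) and WDR12 (-1.43 ± 0.26). KRR1, UTP15 and EMG1 act in making the small subunit and WDR12 in making the large, and KRR1 was above background on 1 of the 3 E50 arrays. Of 11 genes of RNA polymerase I, which copies the ribosomal RNA genes, POLR1D (-1.42 ± 0.30) and POLR2L (-1.31 ± 0.21), subunits shared with other polymerases, fell and the median was -0.46. Of 10 genes of the mTOR pathway RHEB, its activator (-1.06 ± 0.22), and AKT1S1, an inhibitor (-1.18 ± 0.28), fell, EIF4E, the cap-binding protein (1.16 ± 0.22), rose, and the median was 0.01. Between E60 and E70 limma called 0 of the 84 genes of these 6 lists, and 3 had an unadjusted p under 0.05.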

How the data were processed

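The 9 arrays were grouped by the stage in the sample labels. The deposited values are intensity signals on a linear scale, 1 a probe set, which the authors computed with the MAS5 algorithm in GeneSpring. No detection calls were used, and arrays have no read depth, so their number limits the precision. Signals were floored at 1 before taking log2. The 124 array controls were set aside. Symbols came from the platform table, and all 60 members were found under the same symbol in the RefSeq gene table. limma 3.58.1 (lmFit and eBayes, constant prior) in R 4.3.3 was fitted to all 23999 probe sets and 9 arrays, with two-sided p-values and Benjamini-Hochberg adjustment across the whole table. The fit was tested on simulated data. Alternatives were other scalings, floors, filters, priors, weights and probe set rules, a fit of 2 stages, a replicate block and each array left out. Members and gene lists were chosen with earlier results of these data known. Members named were the 5 largest called changes each way, those of small functional lists, up to 4 called of each other list, and the 3 largest each way where none was called; others are said to be picked after their values were seen. Sequences, coordinates and protein lengths were not analysed here. Python 3.11.15, NumPy 2.4.6, pandas 2.3.3 and Matplotlib 3.10.9 were used.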

Additional observations from a re-analysis of the deposited data

How the results depend on the processing

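In all 20 alternatives no member was called between E60 and E70. From E50 to E60, where 44 were called lower with a median change of -1.40, median centring and quantile normalization mattered most. Centring on the 75th percentile gave 42 lower and 1 higher, median -1.36. After median centring 25 were lower and 3 higher, median -0.63. After quantile normalization 8 were lower and 2 higher, median -0.12. Median centring also turned the calls over all probe sets from 2552 lower and 1884 higher to 911 lower and 4679 higher. The prior, the weights and the arrays fitted moved the counts from E50 to E60 at medians of -1.40 to -1.41. With an intensity-dependent prior 51 members were called lower, with 2 stages only 36 and with array weights 32. Over all 23999 probe sets 2892, 1228 and 747 were called lower in the same order. From E50 to E70 the medians were -0.82 after median centring and -0.0856 after quantile normalization. Quantile normalization called 11 members lower, where 2111 of all 23999 probe sets were lower and 1952 higher. Either scaling called 2 members higher, and the F test called 27 and 9 members in the same order. The mean of all probe sets of a gene gave medians of -1.19 and -1.26, with 2 called higher in each comparison with E50. The call of RPL26 was lost (0 called higher) from E50 to E60 and from E50 to E70 with 2 stages only or array weights. With dim probe sets left out 0 were called higher from E50 to E60, since RPL26 was itself removed and not tested. The E60 to E70 median was -0.15 after median centring.

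Leaving out 1 array gave 32 to 45 members called lower from E50 to E60 and 36 to 46 from E50 to E70, 0 to 1 called higher in each, and 36 to 45 called by the F test. The medians were -1.44 to -1.35, -1.64 to -1.43 and, from E60 to E70, -0.16 to 0.0017. The deviations of same-numbered arrays from their stage means had correlations between -0.02 and 0.03. Those of differently numbered arrays lay between -0.04 and 0.03. Whether arrays of the same number share animals or pools was not tested. With a replicate block 38 members were lower and 1 higher from E50 to E60, 38 lower and 0 higher from E50 to E70, and 0 called from E60 to E70.

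Of 817 values of single members under alternatives 736 kept direction and side of the threshold, 60 lost the call, 6 gained it and 15 changed sign. From E50 to E60 the sign changed after quantile normalization in RPL17 (0.17), RPL22L1 (0.30), RPL31 (0.28), RPL5 (0.83), RPS6 (0.40) and RPL7L1 (-0.13), and after median centring in RPL22L1 (0.68), RPL3 (0.11) and RPL5 (0.62). RPL34 was at 1.10 with the mean of its probe sets. RPL7L1 was at -0.00720 with array weights and between -0.0796 and 0.0840 with 1 array left out. From E60 to E70 RPS13 was at -0.0247 with the mean of its probe sets, and RPL30 lay between -1.46 and 0.29 with 1 array left out. The causes were not tested.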
